A study of Homo sapiens with 15 samples.

Results

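The response to hyperoxia of lung epithelial cells that had received all-trans retinoic acid (ATRA) was measured by comparing 3 RNA-seq libraries from hyperoxia with ATRA and 3 from normoxia with ATRA, 6 of the 15 libraries of the study. The libraries were chosen by their labels alone. The cells were A549, a human lung adenocarcinoma line used as a model of alveolar epithelium, given as wild type in genotype. All 6 libraries came from cells treated with 1e-05 mM ATRA for 24 hours and then kept in 95% O2 (hyperoxia) or in 21% O2 (normoxia) until RNA was taken at 72 hours. The same oxygen exposures without ATRA were used for reference only, 2 libraries each with the ethanol vehicle and 2 each without any treatment, and 1 library whose label names another treatment was put in no group. A549 is a single tumor line, and the labels do not say whether the libraries of a group came from separate cultures, so p-values measure the spread between libraries, which may be technical.

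Counts on genes ranged from 2642377 to 5605072 in the hyperoxia ATRA libraries and from 3163517 to 3947552 in the normoxia ATRA libraries. At these depths 3 counts, the smallest number read as a level, correspond to between 0.535 and 1.14 CPM (counts scaled to the library size), which covers counting error only. Hyperoxia library 1 stood apart: on the second principal component of log2 CPM, which held 15.2% of the variance, it lay at -76.6 while the other 9 ATRA and vehicle libraries lay between -12.5 and 33.7. Counts of genes are therefore also given without this library. Pairs of libraries of the same ATRA group correlated at r = 0.895 to 0.966 across genes.

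The label of an alveolar cell was checked against markers. Of 12 alveolar type II markers, SFTPA1, SFTPA2, NKX2-1 and SLC34A2 had no count in any of the 6 libraries, 4 passed the filter on low counts and none was a DE gene, and their summed level was 221 to 238 CPM in hyperoxia and 176 to 203 CPM in normoxia. ABCA3, the lipid transporter of lamellar bodies, had 101, 107 and 113 CPM in hyperoxia and 90.2, 61.5 and 88.6 CPM in normoxia, with a log2 FC of 0.41 (SE 0.16, adjusted p = 0.0637 by edgeR). Among alveolar type I markers PDPN, HOPX and AQP5 were at 0, 2 of 6 tested were upregulated (CAV1 and CAV2) and 2 downregulated (EMP2 and AKAP5), and the sums were 406 to 532 CPM in hyperoxia and 366 to 455 CPM in normoxia. Without normoxia library 1 none of these was upregulated and 1 downregulated, without hyperoxia library 2 or normoxia library 3 there was 1 upregulated, and without hyperoxia library 1, normoxia library 2 or hyperoxia library 3 there was 1 downregulated. Among airway markers KRT5, KRT14, SCGB1A1, SCGB3A2 and FOXJ1 were at 0. The fibroblast marker DCN, the endothelial markers VWF, KDR, CLDN5 and TEK and the leukocyte markers PTPRC and CD3E were at 0 as well.

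Breathing gas rich in oxygen raises reactive oxygen species in lung epithelium, which damage DNA, lipids and proteins and can halt the cell cycle. p53, a transcription factor stabilized by DNA damage, induces the cyclin-dependent kinase inhibitor p21 (CDKN1A). NRF2, a transcription factor activated under oxidants, induces genes that repair and replace thiols. ATRA is the active form of vitamin A and acts through retinoic acid receptors that pair with retinoid X receptors, and it is known for its role in alveolar formation. A549 cells keep a functional p53.

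Hyperoxia changed 3391 of 14957 genes tested under ATRA, 22.7% of them. Here and below, a DE gene is one that passed edgeR's quasi-likelihood test at an adjusted p (Benjamini-Hochberg) under 0.05, and log2 FC is the fitted log2 ratio of hyperoxia to normoxia. Of the DE genes, 1703 (11.4% of genes tested) were upregulated and 1688 (11.3%) downregulated, and with a change of at least 2-fold in addition 645 (4.31%) were upregulated and 650 (4.35%) downregulated. The median log2 FC over all genes tested was 0.01. In 17.9% of genes tested all 3 hyperoxia libraries lay above all 3 normoxia libraries in CPM, and in 17.3% below. Without hyperoxia library 1 there were 3359 DE genes, 1662 upregulated and 1697 downregulated. A lower count in bulk RNA can come from fewer cells of a kind or from less RNA per cell, which cannot be told apart here.

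The genes with the smallest p-values were led by the p53 targets CDKN1A and MDM2. CDKN1A, on chromosome 6 from 36676463 to 36687332 (GRCh38.p14, RefSeq), had 969.8, 1051 and 1038 CPM in the hyperoxia libraries and 65.3, 68.8 and 81.6 CPM in the normoxia libraries. The groups were far apart, with the lowest hyperoxia library above the highest normoxia library. The log2 FC was 3.83 (SE 0.12, adjusted p = 6.49e-15 by edgeR). MDM2, which encodes the ubiquitin ligase that limits p53, had 987, 1065 and 1004 CPM against 124, 173 and 127 CPM, and again the groups did not overlap (log2 FC 2.85, SE 0.13, adjusted p = 3.99e-12 by edgeR). The gene CPM, which overlaps MDM2, held 14.1% as many counts. The plot of single genes shows 9 upregulated and 10 downregulated genes from among those with the smallest p-values, chosen without overlap between the groups.

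**Figure D1:**
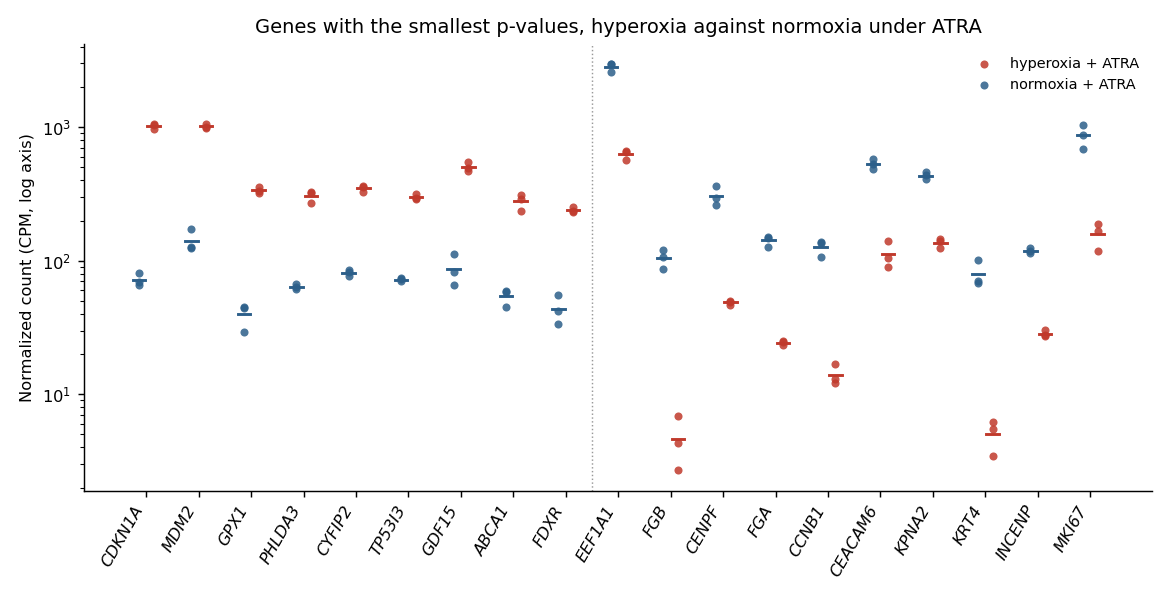
Normalized counts (CPM, log axis) of 19 genes in the 3 hyperoxia ATRA libraries (red) and the 3 normoxia ATRA libraries (blue), 9 upregulated left of the dotted line and 10 downregulated right of it; each point is a library and each bar a group mean. In every gene shown the 2 colors do not overlap, as for CDKN1A with 1020 CPM on average in hyperoxia and 71.9 CPM in normoxia.

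Of 36 p53 targets of arrest and death, all of which were tested, 35 were upregulated and none downregulated, against 11.4% of all genes tested upregulated. The median log2 FC of the list was 1.97, compared with 0.01 over all genes. Among the genes that halt the cycle, BTG2, an antiproliferative gene, had 144, 110.5 and 120.2 CPM in hyperoxia and 18.9, 20.7 and 10.5 CPM in normoxia. All 3 hyperoxia libraries were several times above each normoxia library (log2 FC 2.91, SE 0.20, adjusted p = 1.40e-09 by edgeR). GDF15, a secreted stress cytokine, had 469, 494 and 550.2 CPM against 82.9, 65.3 and 112 CPM (log2 FC 2.53), and PHLDA3, an inhibitor of AKT, had 272, 329 and 319 CPM against 66.3, 61.2 and 63.5 CPM (log2 FC 2.26). SESN2, which restrains mTORC1 and aids the reduction of peroxiredoxins, was upregulated with a log2 FC of 2.53.

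Among the death genes of the list, BBC3, which encodes the BH3-only protein PUMA, had 29.0, 49.6 and 27.1 CPM in hyperoxia and 6.82, 9.42 and 5.77 CPM in normoxia (log2 FC 2.25, SE 0.31, adjusted p = 1.52e-05 by edgeR). BAX, the pore former of the outer mitochondrial membrane, rose less, with 249, 254 and 283 CPM against 117, 126 and 115 CPM (log2 FC 1.14). The death receptor genes FAS and TNFRSF10B rose by 2.04 and 1.62 on the log2 scale. ACTA2, which overlaps FAS, held 86.4% as many counts and RHOBTB2, which overlaps TNFRSF10B, 21.9%. How far reads of these neighbors enter both values was not tested.

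The repair members of the list moved the same way. DDB2 and XPC, which recognize ultraviolet lesions for nucleotide excision repair, rose by 1.62 and 1.204 on the log2 scale, and POLH, a polymerase that copies past damaged bases, by 1.27, with GTPBP2 overlapping POLH at 55.9% of its counts. RRM2B, the p53-induced small subunit of ribonucleotide reductase, had 102, 90.1 and 109.5 CPM against 37.2, 63.1 and 49.3 CPM (log2 FC 1.02), and TIGAR, which diverts sugar phosphates from glycolysis, rose by 1.196. TP53I3, an oxidoreductase, rose by 2.04, with FAM228B overlapping it at 19.6% of its counts. FDXR, the mitochondrial ferredoxin reductase, had 235, 230.5 and 252 CPM in hyperoxia and 42.2, 33.6 and 55.6 CPM in normoxia (log2 FC 2.44), and CYFIP2, an adaptor of actin assembly, rose by 2.10. The exception was CCNG1, cyclin G1, which NUDCD2 overlaps at 25.3% of its counts, with 83.8, 108 and 91.0 CPM against 77.9, 95.4 and 71.6 CPM and overlapping groups (log2 FC 0.21, SE 0.15, adjusted p = 0.368 by edgeR). The number upregulated was 35 as well when any single library was left out and in a fit of 14 libraries.

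Genes of mitosis went the other way. Of 37 mitosis genes, all of them tested, 36 were downregulated and none upregulated, against 11.3% of all genes tested, and the median log2 FC was -2.15. Mitosis genes as a group peak shortly before cell division, and the promoters of many of them hold the cell cycle genes homology region, read as TTTGAA, next to CCAAT boxes, which bind the factor NF-Y. Within 250 bases before the start site TTTGAA occurred on either strand in 16 of 31 mitosis promoters in the RefSeq table (51.6%), in 1 of 31 DNA replication promoters, in 1 of 30 promoters of p53 targets and in 8.48% of 11307 promoters of genes tested (13.3% of all 35116 promoters in the table). CCAAT occurred in 23 of the 31 mitosis promoters (74.2%) and in 34.9% of promoters of genes tested. Among the DE genes that fell at least 2-fold, 20.6% of 485 promoters held TTTGAA, and among those that rose at least 2-fold 8.55% of 468 did. A match of these letters is no evidence that a factor was bound.

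The promoters of MKI67, ASPM and KIF11, the 3 mitosis genes with the smallest p-values under ATRA whose promoter holds TTTGAA, are shown as the 250 bases before the start site (RefSeq, GRCh38.p14), read 5′ to 3′ on the strand of the gene. Capitals mark TTTGAA or its reverse complement TTCAAA and CCAAT or its reverse complement ATTGG.
MKI67, chr10:128126424-128126673, minus strand: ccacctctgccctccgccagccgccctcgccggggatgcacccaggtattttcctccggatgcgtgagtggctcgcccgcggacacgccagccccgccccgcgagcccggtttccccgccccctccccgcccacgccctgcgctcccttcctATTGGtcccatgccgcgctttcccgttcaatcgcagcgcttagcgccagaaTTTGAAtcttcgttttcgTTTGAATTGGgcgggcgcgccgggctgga
ASPM, chr1:197146670-197146919, minus strand: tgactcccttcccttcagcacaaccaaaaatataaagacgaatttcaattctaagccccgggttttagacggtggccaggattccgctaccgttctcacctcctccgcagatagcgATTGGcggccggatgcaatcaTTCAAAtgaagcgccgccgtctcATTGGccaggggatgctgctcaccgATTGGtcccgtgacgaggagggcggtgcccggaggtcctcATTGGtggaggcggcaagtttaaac
KIF11, chr10:92592880-92593129, plus strand: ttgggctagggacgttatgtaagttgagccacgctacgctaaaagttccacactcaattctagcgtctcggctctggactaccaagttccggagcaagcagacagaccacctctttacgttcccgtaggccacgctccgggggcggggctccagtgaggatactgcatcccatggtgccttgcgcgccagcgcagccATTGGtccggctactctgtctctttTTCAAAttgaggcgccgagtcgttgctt
The promoter of MKI67 holds TTTGAA at 2 places, and the one nearer to the start runs into ATTGG with shared letters. The promoter of ASPM holds 1 TTTGAA and 4 CCAAT boxes, and that of KIF11 1 of each.

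MKI67, the gene of the proliferation marker Ki67, had 118, 187 and 167 CPM in hyperoxia and 1038, 881 and 685 CPM in normoxia. No hyperoxia library came near the lowest normoxia library (log2 FC -2.47, SE 0.17, adjusted p = 1.78e-09 by edgeR). ASPM, a spindle pole protein, had 11.6, 27.3 and 26.1 CPM against 158, 213 and 155 CPM, with hyperoxia library 1 the lowest (log2 FC -3.06). KIF11, the kinesin that keeps spindle poles apart, had 14.2, 20.01 and 22.1 CPM against 108, 122 and 94.9 CPM (log2 FC -2.55).

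CCNB1, the cyclin that starts mitosis, had 16.9, 13.1 and 12.1 CPM in hyperoxia and 106, 137 and 139 CPM in normoxia (log2 FC -3.16, SE 0.21, adjusted p = 6.53e-10 by edgeR). Its kinase partner CDK1 was lower by less, with 18.1, 27.7 and 18.1 CPM against 46.9, 64.4 and 51.9 CPM (log2 FC -1.38). The mitotic kinases PLK1 and AURKA fell by 3.22 and 2.81 on the log2 scale, the kinetochore gene CENPF by 2.65, INCENP of the chromosomal passenger complex by 2.07 and CDC20, an activator of the anaphase-promoting complex, by 2.11. FOXM1, with ITFG2 overlapping it at 31.3% of its counts, and MYBL2, transcription factors that drive this program, fell by 1.36 and 1.14, and KPNA2, an importin that carries proteins into the nucleus, by 1.67. The largest change of the list was that of HMMR, a spindle protein and hyaluronan receptor, with 2.90, 3.46 and 3.56 CPM against 31.7, 50.2 and 43.5 CPM (log2 FC -3.66). NDC80, which links kinetochores to microtubules, was the only member that did not pass, with 1.27, 7.70 and 4.75 CPM against 11.5, 11.6 and 7.34 CPM (log2 FC -1.22, SE 0.56, adjusted p = 0.128 by edgeR), and it passed without hyperoxia library 2 (log2 FC -1.81, adjusted p = 0.0375 by edgeR).

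Genes of DNA replication fell as well, by less. Of 35 genes, 29 were downregulated (82.9%, against 11.3% of all genes tested) and none upregulated. The median log2 FC was -1.10, and 26 were downregulated without hyperoxia library 1. MCM7 and MCM5 belong to the replicative helicase. MCM7 had 92.9, 124 and 128 CPM in hyperoxia and 258, 270.0 and 279 CPM in normoxia (log2 FC -1.23, SE 0.13, adjusted p = 4.33e-07 by edgeR), while MCM5 had 31.2, 72.0 and 59.1 CPM against 185, 141 and 149.5 CPM (log2 FC -1.58). TK1, a thymidine kinase of the S phase, fell by 1.43 on the log2 scale. PCNA, the sliding clamp, had 195, 216 and 192 CPM against 176, 172 and 194 CPM, with overlapping groups (log2 FC 0.15, SE 0.12, adjusted p = 0.395 by edgeR). PCNA-AS1, which overlaps PCNA, held 94% as many counts, and TYMS, thymidylate synthase, which overlaps ENOSF1 with 155% as many counts, had a log2 FC of 0.23 without passing the test. MCM2 fell by 0.72, with an overlapping RefSeq gene at 49.9% of its counts.

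Histone genes of the HIST clusters, a list added after the values were seen, showed the lowest median of the pathway lists and those added. Of 72 genes 48 were tested, and 35 of those were downregulated (72.9%, against 11.3% of all genes tested) and none upregulated. The median log2 FC was -2.37 with ATRA. HIST1H1D, a linker histone, had 5.81, 5.77 and 3.33 CPM in hyperoxia and 55.6, 50.5 and 59.5 CPM in normoxia (log2 FC -3.48, SE 0.36, adjusted p = 3.25e-07 by edgeR). HIST1H3B had 5.08, 10.4 and 5.46 CPM against 42.0, 41.8 and 97.3 CPM (log2 FC -3.19). Histone genes are near-identical copies of each other, so the split of reads among them is uncertain, and 23 of them were downregulated in the fit of 14 libraries.

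Of 20 genes of homologous recombination and the Fanconi pathway, which mend double-strand breaks and crosslinks, 10 were downregulated and none upregulated. That was 50%, against 11.3% of all genes tested, and the median log2 FC was -0.76. FANCD2 had 21.2, 26.2 and 22.1 CPM in hyperoxia and 57.4, 63.4 and 70.3 CPM in normoxia (log2 FC -1.47, SE 0.18, adjusted p = 4.95e-06 by edgeR). BRCA1 and BRCA2 fell by 1.30 and 1.38 on the log2 scale, and FANCI, which POLG overlaps with 106% as many counts, by 1.13. The plot of shares gives the members called in each direction for 23 pathway and gene family lists beside the share over all genes tested.

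**Figure D2:**
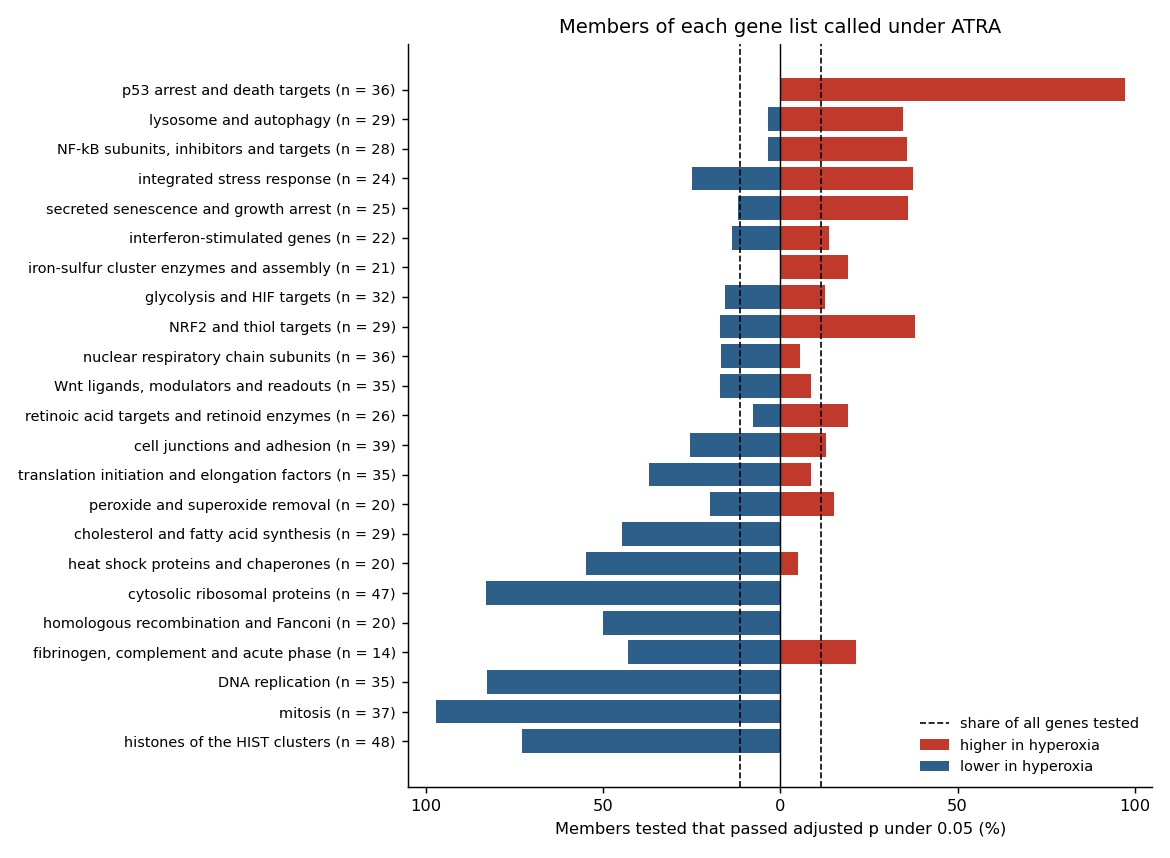
Share of the tested members of 23 gene lists (n in brackets) that passed adjusted p under 0.05 under ATRA, higher in hyperoxia to the right in red and lower to the left in blue, in percent, with dashed lines at the shares of all genes tested (11.4% and 11.3%). p53 targets reach 97.2% higher and mitosis genes 97.3% lower, while most other lists stay nearer to the dashed lines.

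Targets of NRF2 were split. Of 29 genes of the NRF2 and thiol list 11 were upregulated and 5 downregulated, and the median log2 FC was 0.06. In shares this was 37.9% and 17.2%, against 11.4% and 11.3% of all genes tested. HMOX1, heme oxygenase, had 895, 844 and 969 CPM in hyperoxia and 321, 257 and 331 CPM in normoxia (log2 FC 1.57, SE 0.11, adjusted p = 2.50e-09 by edgeR). The ferritin chains FTH1 and FTL, which store the iron that heme oxygenase releases, rose by 1.16 and 0.92 on the log2 scale. SRXN1, which restores overoxidized peroxiredoxins, had 441, 432 and 516 CPM against 241, 234 and 228 CPM (log2 FC 0.98), OSGIN1 rose by 1.57, TXNRD1, thioredoxin reductase, by 0.63 and SLC7A11, the cystine importer, by 0.50.

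The members that fell were all metabolic enzymes. TKT, transketolase of the pentose phosphate pathway, had 1414, 1140 and 1222 CPM in hyperoxia and 2189, 1912 and 2375 CPM in normoxia (log2 FC -0.78, SE 0.11, adjusted p = 3.13e-05 by edgeR), and PGD of the same pathway fell by 0.52. GSR, ME1 and UGDH were the other 3. Without normoxia library 1, or without hyperoxia library 2, 3 members were downregulated. NQO1, the quinone reductase often used as a marker of NRF2, had 1215, 1224 and 1247 CPM against 1009, 1102 and 1122 CPM. These groups did not overlap, but the log2 FC of 0.19 did not pass (SE 0.10, adjusted p = 0.184 by edgeR). NFE2L2, which encodes NRF2, and GCLM, a subunit of the enzyme that starts glutathione synthesis, had log2 FCs of 0.12 and -0.08 and overlapping groups.

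Among 20 tested genes that remove peroxide and superoxide 3 were upregulated and 4 downregulated, with a median log2 FC of -0.22. The shares were 15% and 20%, against 11.4% and 11.3% of all genes tested. GPX1, glutathione peroxidase, which also stands in the p53 list, had 330.5, 356 and 322 CPM in hyperoxia and 45.4, 29.2 and 44.6 CPM in normoxia (log2 FC 3.07, SE 0.15, adjusted p = 6.19e-12 by edgeR). The log2 FC of its relative GPX2 was negative, with 471, 483 and 379 CPM against 770.4, 719.5 and 922 CPM (log2 FC -0.86). GSS, glutathione synthetase, rose by 0.75, and the peroxiredoxins PRDX4 and PRDX1 fell by 0.97 and 0.56, the latter with MMACHC overlapping it at 61.7% of its counts. SOD1, SOD2 and CAT, the superoxide dismutases and catalase, had log2 FCs of -0.24, 0.16 and -0.22, and none passed. ACAT2, which overlaps SOD2, held 74.7% as many counts.

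Iron-sulfur clusters, cofactors that oxygen and its radicals can break, are built by a set of mitochondrial proteins. Of 21 such genes and iron-sulfur enzymes 4 were upregulated (19%, against 11.4% of all genes tested) and none downregulated. In 4 members all 3 hyperoxia libraries lay above all 3 normoxia libraries, and in 5 below. Over all genes tested this held for 17.9% and 17.3%. ISCU, the scaffold on which clusters form, had 66.4, 82.4 and 84.3 CPM in hyperoxia and 38.5, 30.8 and 34.4 CPM in normoxia (log2 FC 1.16, SE 0.16, adjusted p = 2.14e-05 by edgeR). IBA57, a late assembly factor, rose by 1.25 and ACO1, the cytosolic aconitase, by 0.43. In untreated libraries ISCU had a log2 FC of 0.08. The number upregulated was 2 without hyperoxia library 2, without normoxia library 2 or without hyperoxia library 3. Of 36 nuclear genes of the respiratory chain 2 were upregulated and 6 downregulated (5.56% and 16.7%, against 11.4% and 11.3% of all genes tested). CYC1, cytochrome c1, rose by 0.50 and ATP5MC1, a subunit of the ATP synthase ring, fell by 0.72, and 2 members were downregulated without normoxia library 1. The number upregulated was 1 without normoxia library 1, hyperoxia library 2 or normoxia library 3.

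Most ribosomal protein transcripts were lower in hyperoxia. Of 47 cytosolic ribosomal protein genes 39 were downregulated (83%, against 11.3% of all genes tested) and none upregulated. The median log2 FC was -0.59, so most changes were small. RPL3 had 279, 296 and 296 CPM in hyperoxia and 694, 651 and 763 CPM in normoxia (log2 FC -1.28, SE 0.10, adjusted p = 1.42e-08 by edgeR). RPL14 and RPS7 fell by 1.44 and 1.21 on the log2 scale. The stalk protein genes RPLP0 and RPLP1 did not move with the others. RPLP0 had 950.0, 901 and 860.1 CPM against 868, 877 and 1015 CPM and RPLP1 had a log2 FC of 0.12, and neither passed. Ribosomal protein genes have many processed copies in the genome, so their counts are uncertain.

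EEF1A1, which delivers aminoacyl-tRNA to the ribosome, had 655, 572 and 659.5 CPM in hyperoxia and 2576, 2950 and 2959 CPM in normoxia. Each normoxia library was several times above each hyperoxia library, and the gene had the smallest p-value among downregulated genes (log2 FC -2.17, SE 0.11, adjusted p = 1.75e-11 by edgeR). EEF1A1 too has near-identical copies. Among 35 initiation and elongation factors, a list added after the values were seen, 13 were downregulated and 3 upregulated. The shares were 37.1% and 8.57%, against 11.3% and 11.4% of all genes tested. The upregulated ones were the start-site selection factors EIF1 and EIF5 and the helicase EIF4A2. EIF1 had 805, 803 and 794 CPM against 323, 338 and 359 CPM (log2 FC 1.24), while EIF4A2 and EIF5 rose by 0.83 and 0.58. EIF4B fell by 0.71, and EEF2, the translocation factor, had a log2 FC of -0.13 and overlapping groups.

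Of 20 heat shock proteins and chaperones 11 were downregulated and 1 upregulated (55% and 5%, against 11.3% and 11.4% of all genes tested). The median log2 FC was -0.51. HSP90B1, the chaperone GRP94 of the endoplasmic reticulum, had 309.5, 238 and 240.1 CPM in hyperoxia and 635, 712 and 583 CPM in normoxia (log2 FC -1.29, SE 0.12, adjusted p = 7.21e-08 by edgeR), and an overlapping microRNA gene held 11.4% as many counts. HSPA5, which encodes BiP, fell by 0.95 on the log2 scale, and HSP90AA1 of the cytosol by 0.51. HSPA4L was the one member that rose, with 75.1, 43.1 and 62.2 CPM against 34.1, 38.6 and 30.4 CPM (log2 FC 0.83, SE 0.19, adjusted p = 0.00340 by edgeR), and in the fit of 14 libraries its adjusted p was 0.0759 by edgeR.

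Inflammatory genes under NF-kB, a transcription factor family of immune and stress responses, rose in part. Of 28 tested NF-kB subunits, inhibitors and targets 10 were upregulated and 1 downregulated, and the median log2 FC was 0.33. In shares this was 35.7% and 3.57%, against 11.4% and 11.3% of all genes tested. BIRC3, an inhibitor of apoptosis, had 199, 234 and 313 CPM in hyperoxia and 68.7, 65.6 and 61.9 CPM in normoxia (log2 FC 1.93, SE 0.15, adjusted p = 5.36e-09 by edgeR). TNFAIP3, which encodes the deubiquitinase A20 and damps NF-kB, had 22.3, 38.1 and 30.2 CPM against 10.5, 10.7 and 7.61 CPM (log2 FC 1.64), and NFKBIE, an inhibitor of the same family, rose by 1.43. TRAF1 rose by 2.62, but PHF19, which overlaps it, held 299% as many counts. NFKB1, which encodes the p105 precursor, had 36.8, 46.6 and 55.1 CPM against 50.4, 38.0 and 44.3 CPM with overlapping groups (log2 FC 0.05, adjusted p = 0.877 by edgeR). CXCL5, a neutrophil chemokine, was the one member that fell, with 51.9, 45.03 and 61.3 CPM against 101, 86.3 and 82.6 CPM (log2 FC -0.76), and 2 members fell without hyperoxia library 2.

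Interferon-stimulated genes did not move as a group. Of 22 tested, 3 were upregulated and 3 downregulated, 13.6% each, near the 11.4% and 11.3% of all genes tested. TAP1, a peptide transporter of antigen presentation that PSMB8-AS1 overlaps at 37.1% of its counts, rose by 0.87 and HLA-E by 0.72, while the RNA sensors OAS1 and OAS3 fell by 1.04 and 1.10.

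Among 25 tested genes that arrested or senescent cells secrete, or lose, 9 were upregulated and 3 downregulated. That was 36% and 12%, against 11.4% and 11.3% of all genes tested, so the share that fell was near that of all genes. SERPINE2, a secreted serine protease inhibitor, had 141, 199 and 148 CPM in hyperoxia and 54.0, 57.1 and 50.6 CPM in normoxia (log2 FC 1.58, SE 0.15, adjusted p = 8.11e-08 by edgeR). The EGF receptor ligands EREG and TGFA rose by 1.33 and 1.15. HBEGF, another ligand of that receptor, was near the limit of detection with 7.44, 2.69 and 4.75 CPM against 1.05, 0 and 1.57 CPM (log2 FC 2.45, SE 0.71, adjusted p = 0.0153 by edgeR), and its adjusted p was 0.0657 by edgeR with only the ATRA groups in the fit and 0.0611 with 14 libraries. The 3 members that fell were the nuclear lamins LMNB1 and LMNB2 and the chromatin protein HMGB2, which arrested cells are known to lose. LMNB1 had 16.0, 16.9 and 23.8 CPM against 71.6, 83.5 and 62.7 CPM (log2 FC -1.94), and HMGB2 fell by 1.42.

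Fibrinogen and acute phase genes, a further list added after the values were seen, had 6 of 14 tested members downregulated and 3 upregulated. That was 42.9% and 21.4%, against 11.3% and 11.4% of all genes tested. The median log2 FC was -1.001 and the highest of the tested members 1.45. FGB, the beta chain of fibrinogen, had 6.90, 2.69 and 4.28 CPM in hyperoxia and 121, 87.0 and 106 CPM in normoxia (log2 FC -4.39, SE 0.25, adjusted p = 9.40e-11 by edgeR). FGA had 25.2, 23.5 and 24.5 CPM against 148, 127 and 152 CPM (log2 FC -2.54), and FGG fell by 2.91. All 3 chains of fibrinogen, a clotting protein that lung epithelial lines are known to make, were thus lower, and the libraries did not overlap for any of them. Over all genes tested the hyperoxia libraries all lay below in 17.3%.

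Of 24 genes of the integrated stress response, in which ATF4 answers a block in translation initiation, 9 were upregulated and 6 downregulated. That was 37.5% and 25% of them, against 11.4% and 11.3% of all genes tested. The transcription factors ATF3, ATF4 and ATF5 of the list rose, while DDIT3 did not pass. ATF3 had 20.7, 23.5 and 29.2 CPM in hyperoxia and 2.62, 0.314 and 2.88 CPM in normoxia (log2 FC 3.59, SE 0.40, adjusted p = 1.16e-06 by edgeR), and ATF4 had 421, 409.5 and 467 CPM against 247, 256 and 254 CPM (log2 FC 0.78). ATF5 rose by 1.34, with NUP62 overlapping it at 161% of its counts. The enzymes of serine synthesis, which ATF4 is known to induce, went the other way: PHGDH had 34.7, 18.5 and 25.4 CPM against 69.0, 59.6 and 59.0 CPM (log2 FC -1.22), and PSAT1 fell by 0.40. The call of PSAT1 (adjusted p = 0.0182 by edgeR) was lost without normoxia library 2 (log2 FC -0.35, adjusted p = 0.0558 by edgeR) and in the fit of 14 libraries (adjusted p = 0.295 by edgeR). DDIT4, an inhibitor of mTORC1, fell by 0.75, and DDIT3, which encodes CHOP, had a log2 FC of 0.37 and overlapping groups. TRIB3, a pseudokinase that binds ATF4, had 86.9, 52.0 and 85.02 CPM against 52.2, 49.3 and 45.9 CPM (log2 FC 0.62, adjusted p = 0.00986 by edgeR), with hyperoxia library 2 inside the normoxia range. The call was lost without hyperoxia library 3 (log2 FC 0.51, adjusted p = 0.0552 by edgeR) and without normoxia library 3 (log2 FC 0.55, adjusted p = 0.0506 by edgeR), and in the fit of 14 libraries (adjusted p = 0.0944 by edgeR).

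Of 29 genes of cholesterol and fatty acid synthesis 13 were downregulated (44.8%, against 11.3% of all genes tested) and none upregulated. The median log2 FC was -0.49, and 8 were downregulated in the fit of 14 libraries. HMGCS1, which makes HMG-CoA, had 28.7, 45.4 and 36.8 CPM in hyperoxia and 94.4, 83.5 and 81.0 CPM in normoxia (log2 FC -1.25, SE 0.16, adjusted p = 6.92e-06 by edgeR). FDPS, farnesyl diphosphate synthase, fell by 1.597, with the antisense gene RUSC1-AS1 at 78.9% of its counts. SCD, the desaturase of fatty acids, had 2063, 2034 and 1892 CPM against 2644, 3125 and 2874 CPM (log2 FC -0.53). ABCA1, which exports cholesterol, rose, with 237, 309 and 291 CPM against 45.4, 58.4 and 59.5 CPM (log2 FC 2.35, SE 0.14, adjusted p = 1.32e-10 by edgeR).

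Lysosome and autophagy genes had 10 of 29 members upregulated and 1 downregulated (34.5% and 3.45%, against 11.4% and 11.3% of all genes tested). The median log2 FC was 0.38, and 6 were upregulated without normoxia library 3. SQSTM1, the autophagy receptor p62, which also stands in the NRF2 list, had 2688, 3157 and 3976 CPM in hyperoxia and 1207, 1144 and 1214 CPM in normoxia (log2 FC 1.46, SE 0.13, adjusted p = 2.72e-08 by edgeR). PSAP, the precursor of the saposins, rose by 0.93 and TFE3, a transcription factor of lysosomal genes, by 0.98. CD68, a lysosomal glycoprotein that is also used as a macrophage marker, had 87.1, 86.6 and 83.8 CPM against 32.0, 33.0 and 24.1 CPM (log2 FC 1.53) while PTPRC was at 0. The leukocyte markers summed to between 96.3 and 98.8 CPM in hyperoxia and between 40.4 and 49.3 CPM in normoxia. CD68 was the only one of the 7 that was upregulated, and without hyperoxia library 1 a second member passed.

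Glycolytic genes and targets of the hypoxia-inducible factor HIF, which oxygen destabilizes, had 4 of 32 tested members upregulated and 5 downregulated, shares near those over all genes. The number downregulated was 3 without hyperoxia library 1, 3 without hyperoxia library 2 and 2 without normoxia library 1. ADM, the vasodilator adrenomedullin and a HIF target, had 95.5, 89.3 and 109 CPM in hyperoxia and 21.0, 17.3 and 28.1 CPM in normoxia (log2 FC 2.14, SE 0.17, adjusted p = 1.08e-08 by edgeR). SLC2A1, the glucose transporter, had 173, 188 and 174 CPM against 165, 140.0 and 189.6 CPM with overlapping groups.

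The retinoid genes themselves moved in both directions, with log2 FCs from -2.50 to 1.05 among the members tested. Of 26 tested targets of retinoic acid and retinoid enzymes 5 were upregulated and 2 downregulated, with a median log2 FC of -0.13. The shares were 19.2% and 7.69%, against 11.4% and 11.3% of all genes tested. The number upregulated was 2 without hyperoxia library 1, 3 without normoxia library 2 and 2 without normoxia library 3, and the number downregulated was 4 without hyperoxia library 1 and 1 without normoxia library 1, hyperoxia library 2 or hyperoxia library 3. STRA6, a receptor that takes up retinol, had 374, 405 and 321 CPM in hyperoxia and 199, 166 and 203 CPM in normoxia (log2 FC 0.95, SE 0.13, adjusted p = 1.48e-05 by edgeR). CYP26A1, the enzyme that clears ATRA, was low in all libraries, with 1.996, 2.69 and 2.61 CPM against 4.98, 6.91 and 4.72 CPM (log2 FC -1.19, SE 0.71, adjusted p = 0.253 by edgeR). DHRS3, which turns retinal back into retinol, had a log2 FC of -0.14 and overlapping groups. CEACAM6, an adhesion protein of epithelia, had 139, 106 and 90.0 CPM against 482, 574 and 533 CPM (log2 FC -2.24, SE 0.15, adjusted p = 9.39e-10 by edgeR), with an overlapping RefSeq gene at 14.8% of its counts.

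Of 35 tested Wnt ligands, modulators and readouts 3 were upregulated and 6 downregulated, with a median log2 FC of -0.09. The shares were 8.57% and 17.1%, against 11.4% and 11.3% of all genes tested. LGR4, a receptor of R-spondins, had 89.8, 57.3 and 51.3 CPM in hyperoxia and 180.4, 189.6 and 203 CPM in normoxia (log2 FC -1.51, SE 0.16, adjusted p = 5.21e-07 by edgeR), and the coreceptor LRP6 fell by 0.51. DACT2, a modulator of Dishevelled, had 0 CPM in all 3 hyperoxia libraries and 10.8, 9.42 and 7.87 CPM in normoxia, at least 11.6-fold lower against a floor of 3 counts a library (adjusted p = 0.000216 by edgeR). RSPO3, a ligand that enhances Wnt signals, had 96.0, 102 and 110.2 CPM against 65.5, 61.2 and 50.6 CPM (log2 FC 0.80). DKK1, a secreted inhibitor, rose by 0.96 and TLE4, a corepressor, by 1.34. AXIN2, a feedback target of the pathway, had 3.63, 6.93 and 5.94 CPM against 9.44, 10.1 and 8.13 CPM, which did not overlap and did not pass (log2 FC -0.76, SE 0.47, adjusted p = 0.264 by edgeR), and CTNNB1, which encodes beta-catenin, had a log2 FC of 0.12.

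Among 39 tested genes of cell junctions and adhesion 5 were upregulated and 10 downregulated. Those are 12.8% and 25.6% of them, against 11.4% and 11.3% of all genes tested. CDH1, E-cadherin, had 37.2, 21.2 and 18.5 CPM in hyperoxia and 78.4, 69.4 and 80.2 CPM in normoxia (log2 FC -1.54, SE 0.22, adjusted p = 2.93e-05 by edgeR). JUP, plakoglobin, fell by 1.03, and CLDN2, a claudin of leaky tight junctions, fell by 2.599. The collagen receptor ITGA2 had 251, 272 and 302 CPM against 104, 108 and 111 CPM (log2 FC 1.35), and ITGA3 and CLDN1 rose by 0.83 and 0.98. The number upregulated was 3 without hyperoxia library 2. EPCAM was near the limit of detection, with 0.726, 0 and 0.475 CPM against 4.20, 3.45 and 4.72 CPM (log2 FC -3.10, SE 1.09, adjusted p = 0.0452 by edgeR). With single libraries other than hyperoxia library 1 left out, its adjusted p ranged from 0.0664 to 0.106 by edgeR, and in the fit of 14 libraries it was 0.0943.

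Keratins of A549 moved apart. KRT8 had 2850, 2315 and 1935 CPM in hyperoxia and 5944, 4217 and 5348 CPM in normoxia (log2 FC -1.13, SE 0.14, adjusted p = 3.66e-06 by edgeR), and its partner KRT18 fell by 1.58. KRT18 overlaps KRT8 and held 53.9% as many counts. KRT7 had 2817, 2584 and 2727 CPM against 2329, 1735 and 1969 CPM (log2 FC 0.43), with KRT7-AS at 41% of its counts, and KRT19 had a log2 FC of -0.21 and overlapping groups. KRT4, a keratin of squamous mucosa, had 5.45, 3.46 and 6.17 CPM against 101, 68.1 and 70.5 CPM (log2 FC -3.94, SE 0.27, adjusted p = 1.31e-09 by edgeR). EMP2, a membrane protein of type I cells, fell by 1.54 and the airway mucin MUC5AC by 1.38. Of 5 tested airway markers 2 fell, 1 of them without normoxia library 1, hyperoxia library 3 or normoxia library 3. Airway markers summed to between 320 and 494 CPM in hyperoxia and between 477 and 1040 CPM in normoxia, and fibroblast markers to between 6.06 and 7.57 CPM and between 9.17 and 22.7 CPM, with THY1 as the only fibroblast marker that fell and no call left without normoxia library 3. CDH5, VE-cadherin, had no counts in hyperoxia and 20, 6 and 10 in normoxia, with adjusted p = 0.0148 by edgeR and 0.271 by DESeq2, and it did not reach the filter on low counts without normoxia library 1 or normoxia library 3. The part of other cell types in these results was not tested.

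The largest fold changes were found in genes that were near 0 in one group. Among genes that reached 10 CPM in a group, RGMA, a guidance molecule and BMP coreceptor, rose from 0, 1 and 3 counts in normoxia to 7.62, 12.7 and 18.5 CPM in hyperoxia (adjusted p = 2.31e-05 by edgeR). RHCG, an ammonium transporter, had 110.5, 75.4 and 95.9 CPM against 4.46, 1.26 and 4.20 CPM (log2 FC 4.79, SE 0.30, adjusted p = 2.72e-10 by edgeR). KCNQ3, a potassium channel subunit on chromosome 8, had 24.0, 33.5 and 28.7 CPM against 1.31, 1.26 and 1.31 CPM (log2 FC 4.43, SE 0.38). CYGB, cytoglobin, an oxygen-binding globin, had 26.3, 34.6 and 32.8 CPM against 3.15, 0.628 and 1.84 CPM (log2 FC 3.99), and PRCD, which overlaps it, held 60.7% as many counts.

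On the downregulated side, the histone gene HIST1H3J had 0, 2.69 and 0.237 CPM in hyperoxia and 14.4, 23.2 and 31.7 CPM in normoxia (log2 FC -4.98, SE 0.67). TRIM31, a ubiquitin ligase, had 0.907, 0 and 1.66 CPM against 28.8, 37.0 and 26.5 CPM (log2 FC -4.97), with TRIM31-AS1 at 18.2% of its counts. SERPINA3, antichymotrypsin, an acute phase protein, had 0.544, 1.16 and 1.19 CPM against 30.9, 11.9 and 30.2 CPM (log2 FC -4.69). ANG, angiogenin, had 2, 1 and 1 counts in hyperoxia and 15.7, 5.65 and 11.3 CPM in normoxia, and RNASE4, which shares its promoter and first exons with ANG, held 204% as many counts. HMMR-AS1 had 0, 0 and 1.19 CPM against 12.1, 7.53 and 12.3 CPM (log2 FC -4.60), while HMMR, on the same stretch, held 399% as many counts, so that both genes cannot be told apart where strand was not used in counting.

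Hyperoxia in vehicle libraries, which share no library with the ATRA comparison, changed 2616 genes (17.5% of genes tested), 8.68% upwards and 8.81% downwards. With vehicle 2 libraries stood against 2 and with ATRA 3 against 3, so numbers of DE genes cannot be compared directly. Of the 1703 genes upregulated under ATRA, 1638 (96.2%) had a positive log2 FC with vehicle and 884 were DE genes there in the same direction, and of the 1688 downregulated genes 1632 (96.7%) had a negative log2 FC and 948 were DE genes. For the 645 genes upregulated at least 2-fold under ATRA the median log2 FC was 1.44 with ATRA, 1.25 with vehicle and 1.29 in untreated libraries. For the 650 downregulated genes it was -1.52, -1.42 and -1.68. Untreated hyperoxia library 1, which enters the untreated values and the fit of 14 libraries, had counts on 12657 genes, the fewest of the 15 libraries. Seen from the other side, the 625 genes upregulated at least 2-fold with vehicle had a median of 1.42 with vehicle and 1.10 with ATRA, and the 686 downregulated genes -1.55 and -1.13, so that genes chosen in either comparison were closer to 0 in the other. Across 14957 genes the log2 FCs of the 2 comparisons had Pearson r = 0.63 and Spearman rho = 0.63, over points that share the fit and the gene's depth.

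Medians of the gene lists were set side by side for both treatments. p53 targets had a median log2 FC of 1.74 with vehicle, with 35 of 36 upregulated, and mitosis genes -2.03, with 35 of 37 downregulated. Ribosomal protein genes had a median of -0.67 with vehicle and -0.59 with ATRA. Medians stood further apart for cholesterol and fatty acid synthesis, at -0.97 with vehicle and -0.49 with ATRA, and 21 genes of that list were downregulated with vehicle against 13 with ATRA. The integrated stress response had a median of -0.44 with vehicle and 0.30 with ATRA, and lysosome genes 0.06 and 0.38. The differences between these medians were not tested, and within these lists only RPS29, SCD, PSAT1 and TRIB3 passed the test of a difference described next. The plot of list members sets both responses side by side.

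**Figure D3:**
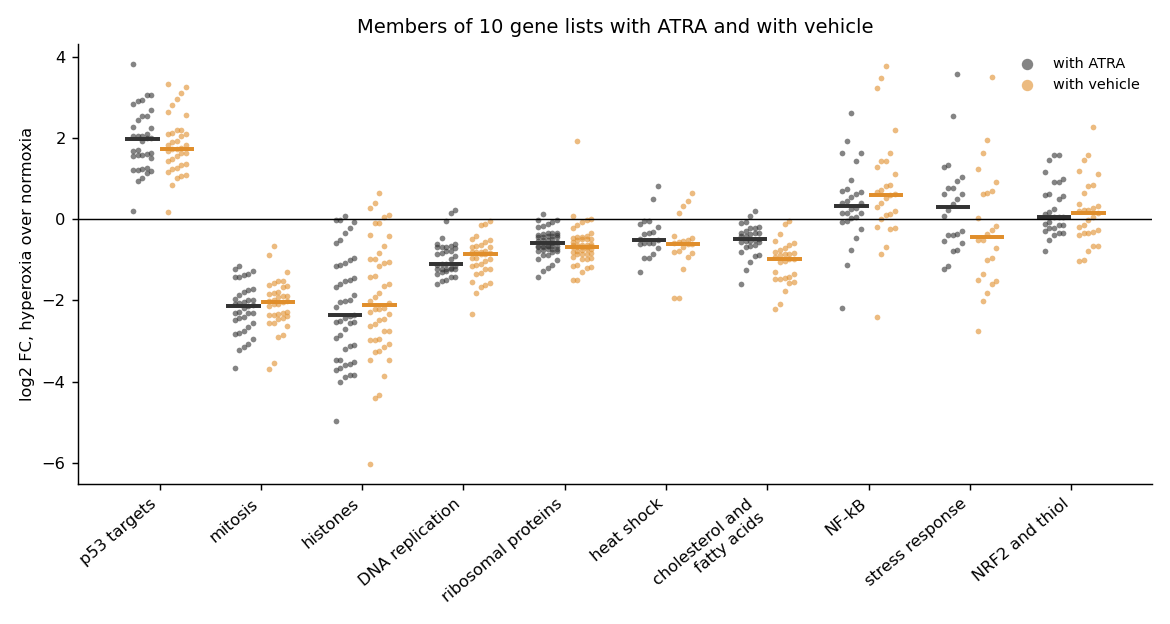
log2 FC of hyperoxia over normoxia for the tested members of 10 gene lists, with ATRA in dark grey and with vehicle in orange; each point is a gene and each bar the median of the list. The medians of p53 targets (1.97 and 1.74) and of mitosis genes (-2.15 and -2.03) lie close together, and those of cholesterol and fatty acid genes (-0.49 and -0.97) and of the stress response (0.30 and -0.44) lie further apart.

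Whether the effect of hyperoxia itself differed between ATRA and vehicle was tested by the interaction of both factors. It passed for 21 of 14957 genes (0.14%), 15 with a more positive and 6 with a more negative log2 FC under ATRA, and for 1078 genes at an unadjusted p under 0.05. DESeq2 called 96 genes. With the untreated libraries in place of vehicle 3 of 15339 genes passed (0.0196%), of which IGFBP3 was also among the 21, and 20 of the 21 had the same sign. The number depended on single libraries: it was 4 without hyperoxia vehicle library 1 or normoxia vehicle library 2, and 7 without normoxia vehicle library 1, while 28 genes passed without normoxia ATRA library 3 and 23 without hyperoxia ATRA library 1. IGFBP3, RPS29, CCND3 and PLOD2 passed with each of the 10 libraries left out in turn. In the fit of 14 libraries 4 genes passed, IGFBP3, RPS29, PLOD2 and FGD6. The plot of both responses marks the 21 genes.

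**Figure D4:**
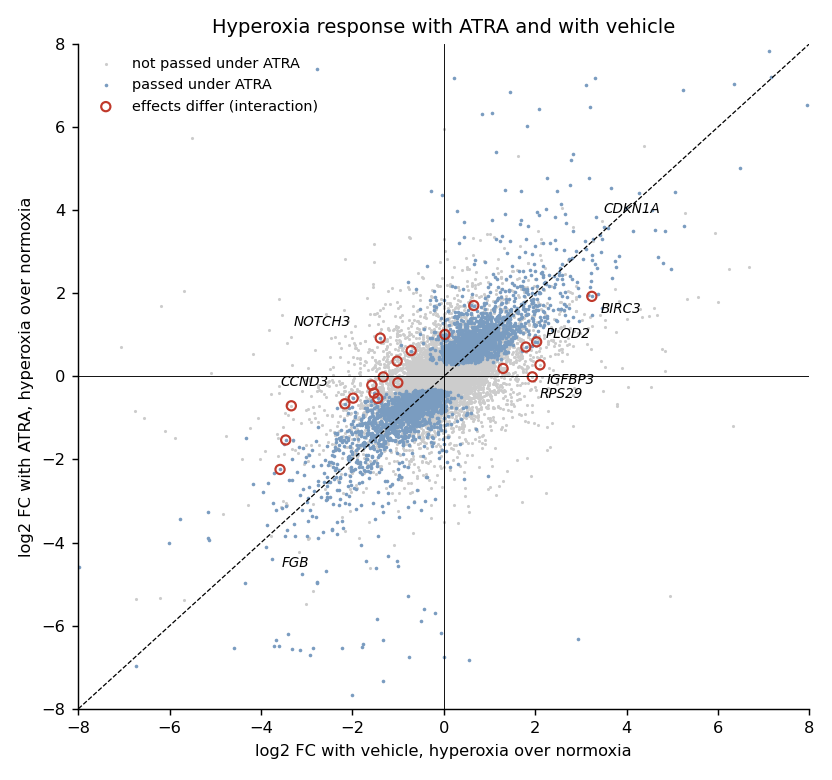
log2 FC of hyperoxia over normoxia with vehicle (x axis) and with ATRA (y axis) for each gene tested, DE genes under ATRA in blue, other genes in grey, and genes that passed the interaction test circled in red; the dashed line marks equal change and 2 genes lie outside the range of 8 log2 units. Most blue points lie in the quadrants of equal sign, and the circled genes lie off the dashed line, such as IGFBP3 at 2.11 with vehicle and 0.28 with ATRA.

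IGFBP3, a secreted binding protein of insulin-like growth factors, had 514, 471 and 449 CPM in hyperoxia with ATRA and 473, 380.5 and 329 CPM in normoxia with ATRA, so that the groups overlapped. With vehicle it had 294 and 274 CPM in hyperoxia and 65.0 and 66.8 CPM in normoxia. Its log2 FC of 0.28 under ATRA (SE 0.12, adjusted p = 0.106 by edgeR) was smaller than that of 2.11 with vehicle, a difference of -1.83 (SE 0.20, adjusted p = 0.00013 by edgeR). Against the untreated libraries the difference was -1.47 (adjusted p = 0.0217 by edgeR). In normoxia the ATRA libraries were all above the vehicle libraries. Without normoxia ATRA library 1 the log2 FC under ATRA was 0.43 and passed (adjusted p = 0.0162 by edgeR).

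PLOD2, which hydroxylates lysines of collagen, had 361, 338 and 390.4 CPM against 195, 215 and 203 CPM with ATRA and 696 and 634 CPM against 154 and 170 CPM with vehicle. It rose in both, by 0.83 with ATRA and 2.03 with vehicle, and the difference was -1.20 (adjusted p = 0.00173 by edgeR). FGD6, an activator of CDC42, had 205, 195 and 196 CPM against 165, 192 and 166 CPM with ATRA, close together, and 266 and 263 CPM against 108 and 108 CPM with vehicle (difference -1.11, adjusted p = 0.00696 by edgeR). The call was lost without hyperoxia vehicle library 1 (adjusted p = 0.0737 by edgeR), normoxia vehicle library 1 (0.0744) or normoxia vehicle library 2 (0.106). BIRC3, described above, rose less under ATRA as well, with 480 and 433 CPM against 51.4 and 45.7 CPM with vehicle (difference -1.31, adjusted p = 0.0145 by edgeR). This call was lost without the same 3 vehicle libraries (adjusted p from 0.0744 to 0.221 by edgeR) and without normoxia ATRA library 1 (0.0567).

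CCND3, cyclin D3, which pairs with CDK4 and CDK6, fell less under ATRA. It had 120.3, 138 and 112 CPM in hyperoxia and 172, 160.1 and 199 CPM in normoxia with ATRA, and 85.03 and 89.0 CPM against 334 and 354 CPM with vehicle. The log2 FCs were -0.52 and -1.98 and the difference 1.46 (SE 0.19, adjusted p = 0.000828 by edgeR). Its call was lost in the fit of 14 libraries (adjusted p = 0.0862 by edgeR) and against the untreated libraries (difference 1.16, adjusted p = 0.340 by edgeR). KIF3C, a kinesin of transport, had 67.9, 80.4 and 51.1 CPM against 109.6, 105.2 and 97.8 CPM with ATRA and 37.9 and 43.4 CPM against 176 and 189 CPM with vehicle (difference 1.51, adjusted p = 0.00696 by edgeR), and this call was lost without hyperoxia vehicle library 1 (adjusted p = 0.0904 by edgeR) or normoxia vehicle library 2 (0.106). In untreated libraries KIF3C had a log2 FC of -0.86, near its value of -0.66 under ATRA. CEACAM6 fell by 2.24 under ATRA and by 3.58 with vehicle, and KRT19 had a log2 FC of -0.21 under ATRA and -1.58 with vehicle. The call of a difference for CEACAM6 was lost without normoxia ATRA library 1 (adjusted p = 0.077 by edgeR). That for KRT19 was lost without hyperoxia or normoxia ATRA library 1 or 2 (adjusted p from 0.0706 to 0.133 by edgeR). In the fit of 14 libraries neither passed (adjusted p = 0.789 and 0.517 by edgeR). Both calls were also lost without hyperoxia vehicle library 1 or either normoxia vehicle library. That for KRT19 was lost without hyperoxia vehicle library 2 as well. Leaving out a vehicle library keeps only 1 in its group. With single libraries left out the differences ranged from 1.10 to 1.69 for CEACAM6 and from 1.17 to 1.52 for KRT19.

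RPS29, a ribosomal protein gene, had 292, 272 and 260.0 CPM in hyperoxia and 300.2, 264 and 268 CPM in normoxia with ATRA, with overlapping groups. Its difference of -1.95 (adjusted p = 0.00017 by edgeR) came with 1569 and 1117 CPM in the hyperoxia vehicle libraries and 423 and 280.4 CPM in normoxia with vehicle. RN7SL1, an abundant RNA of the signal recognition particle, lies within its span and held 556% as many counts, and its own difference was -0.78 (adjusted p = 0.743 by edgeR). Against the untreated libraries the difference of RPS29 was 0.32 (adjusted p = 0.738 by edgeR).

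Hyperoxia moved 3 genes in opposite directions with ATRA and with vehicle, and all 3 passed in each comparison. NOTCH3, a receptor of the Notch family, had 90.6, 75.8 and 64.6 CPM in hyperoxia and 51.4, 21.4 and 48.5 CPM in normoxia with ATRA, and 29.6 and 36.2 CPM against 70.2 and 102 CPM with vehicle. Its log2 FC was 0.92 with ATRA and -1.39 with vehicle, and the difference of 2.31 passed (SE 0.37, adjusted p = 0.00812 by edgeR), though not without hyperoxia vehicle library 1 (adjusted p = 0.0904 by edgeR) or normoxia vehicle library 2 (0.142). TRIB3 had 0.62 and -0.71 (difference 1.33, adjusted p = 0.0364 by edgeR), and its adjusted p ranged from 0.0667 to 0.290 by edgeR without normoxia ATRA library 1, 2 or 3, hyperoxia ATRA library 3 or any of the 4 vehicle libraries. HCN2, a pacemaker channel chosen for this pattern, had 0.76 and -0.93, and its difference of 1.68 did not pass (adjusted p = 0.124 by edgeR). The calls of NOTCH3 and HCN2 under ATRA were lost in the fit of 14 libraries (adjusted p = 0.0606 and 0.262 by edgeR), and HCN2, which an overlapping RefSeq gene accompanies at 20.5% of its counts, also lost its call without hyperoxia library 1, hyperoxia library 2, normoxia library 2 or normoxia library 3, with log2 FCs between 0.56 and 0.72. The plot of single genes by group shows the 6 genes with the smallest interaction p-values.

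**Figure D5:**
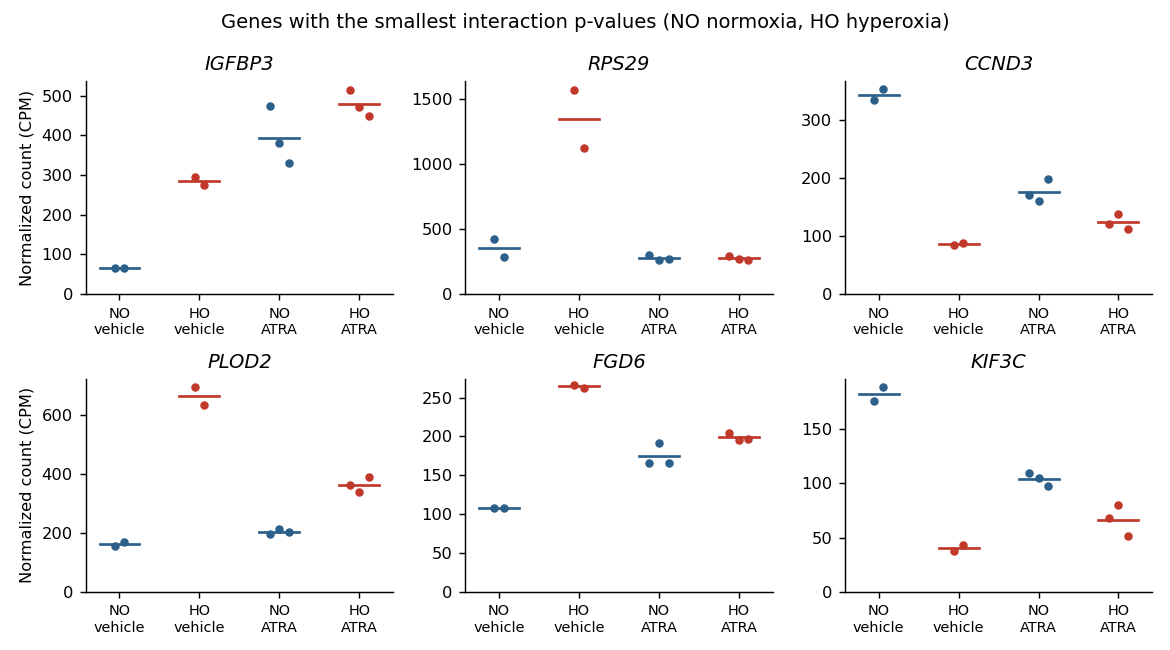
Normalized counts (CPM, linear axis from 0) of the 6 genes with the smallest interaction p-values in normoxia (NO, blue) and hyperoxia (HO, red) with vehicle (2 libraries each) and with ATRA (3 each); points are libraries and bars group means. For IGFBP3, PLOD2 and FGD6 the step from normoxia to hyperoxia is smaller with ATRA than with vehicle, and for CCND3 and KIF3C the drop is smaller, for example from 177 to 124 CPM for CCND3 with ATRA.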

How the data were processed

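RNA-seq of A549 cells was analyzed from the counts of reads per gene that the authors deposited, 1 file per library. Per the labels, libraries came from total RNA with a directional kit. The submitters' processing notes name Trimmomatic 0.38, HISAT2, HTSeq, DESeq2 and hg38; the annotation release and the strand and overlap settings of counting are not given in the sources used here. Rows for reads outside genes (48.6 to 54.4% of the summed rows in the ATRA libraries had no feature) were left out.

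Libraries were grouped by their labels, and 1 library stayed unassigned. The 10 ATRA and vehicle libraries entered 1 fit with 4 groups in edgeR 4.0.16 (R 4.3.3): TMM scaling, filterByExpr with a minimum count of 10 (total 15), which kept 14957 of 43388 genes, quasi-likelihood tests of hyperoxia against normoxia with ATRA, with vehicle and of their interaction, and Benjamini-Hochberg adjustment over all genes tested. Untreated libraries were added in a fit of 14 libraries. The script was tested on simulated data. Alternatives were DESeq2 1.42.0, its size factors in edgeR (RLE), no filter, only the groups compared, 14 libraries, and each library left out. Percentages of counts given beside a gene are the counts of an overlapping RefSeq gene relative to its own in the ATRA libraries, not shared reads. In these libraries 0.536 to 0.671% of the summed gene, no-feature and ambiguous counts were ambiguous. Of 43388 symbols 36114 matched RefSeq (GRCh38.p14). Promoters came from RefSeq.

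The members and lists were chosen with earlier results of these data known. Named were the 10 genes per direction with the smallest p among those past 2-fold without overlap of the libraries, the 5 per direction with the largest change among those with a mean of at least 10 CPM, the 6 with the smallest interaction p, and list members with small p, against the majority or not passed. The histone, fibrinogen and translation factor lists, HCN2, NOTCH3, LRP1, RN7SL1 and the interaction genes beyond these 6 were chosen after their values were seen. Mitochondrially encoded subunits were not analysed here. Some of the genes that this rule names are not reported here.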

Additional observations from a re-analysis of the deposited data

Results flagged for a closer look

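The effect of hyperoxia differed between ATRA and vehicle by the interaction test of edgeR in 21 genes, which is why they are listed here. Values are the log2 FC of hyperoxia over normoxia with ATRA minus that with vehicle. A more negative effect with ATRA was found for RPS29 (-1.95), IGFBP3 (-1.83), BIRC3 (-1.315), PLOD2 (-1.20), FGD6 (-1.11) and RND3 (-1.09), a small GTPase that relaxes actin. A more positive effect with ATRA was found for UNC13A (2.63), NOTCH3 (2.31), TNS4 (1.93), KIF3C (1.51), CCND3 (1.46), ITGB4 (1.39), KRT19 (1.365), CEACAM6 (1.345), TRIB3 (1.335), F11R (1.31), PSAT1 (1.13), LRP1 (1.05), MYEOV (0.9845), SCD (0.92) and FADS2 (0.85). ITGB4 is an integrin of hemidesmosomes, F11R a tight junction protein, LRP1 an endocytic receptor, and FADS2 and SCD desaturate fatty acids.

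The edgeR adjusted p ranged from 0.00013 for IGFBP3 to 0.0497 for KRT19, F11R and RND3. With each library left out in turn, only IGFBP3, RPS29, CCND3 and PLOD2 kept the call throughout. RND3 also missed the threshold with RLE size factors (adjusted p = 0.05005 by edgeR). Against untreated libraries 20 of the 21 had the same sign, and IGFBP3 alone passed (difference -1.47, adjusted p = 0.0217 by edgeR). PSAT1, F11R, KIF3C and TNS4 were near 0 there, at 0.05, 0.08, 0.21 and 0.26. UNC13A, CEACAM6 and KRT19 were further from 0 than against vehicle, at 3.29, 2.16 and 1.92.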

How the results depend on the processing

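No paired analysis was possible because the labels give the groups no shared replicate numbers. With 14 libraries in 6 groups there were 1975 DE genes under ATRA (989 upregulated, 986 downregulated), 832 of them past 2-fold (410 and 422), and 1420 with vehicle. With vehicle the number was 4665 with only the groups compared and 1386 to 1523 with a library left out. The interaction passed for 96 genes by DESeq2, 91 without the filter, 4 with 14 libraries, 3 against untreated libraries and 4 to 28 with a library left out. The cause was not tested.

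Of 148 singly followed genes with a call under ATRA, 140 kept direction and call in all 5 other settings and 6 left-out libraries. Exceptions were HSPA4L, TRIB3, PSAT1, EPCAM, HBEGF, CDH5, HCN2 and NOTCH3, and none reversed. Of 33 without a call, 5 passed somewhere (IGFBP3, NDC80, ITGB4, ABCA3 and UNC13A). Uncalled genes that changed sign with a library left out were RPS29 (-0.062 to 0.051), GCLM (-0.17 to 0.024), RPLP0 (-0.066 to 0.025), NFKB1 (-0.11 to 0.21) and F11R (-0.088 to 0.082). The interaction of RPS29 was 0.32 against untreated libraries. DESeq2 gave no adjusted p for the interaction of UNC13A, NOTCH3, KRT19 and F11R. The median shift of all genes from the main fit was largest without normoxia ATRA library 3, at -0.032. Genes under 3 counts a library were below what these depths resolve.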
